A study of Mus musculus with 10 samples.

Results

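The genes described here are apolipoproteins and genes of cholesterol export, measured in epididymal white adipose tissue (WAT) of 10 mice. They were chosen by name. All probes whose annotated gene is Apoe, Apoc1, Apod, Apoa1, Abca1, Abcg1, Pltp, Soat1 or Nr1h2 were taken, which gave 9 genes with 10 probes and 28 spots, out of 55681 probes and 59305 spots on the array. Apod had 2 probes and each of the other 8 genes had 1. All 10 mice belonged to 1 group. They were wildtype males whose strain is given in the labels both as C57BL/6JOlaHsd and as C57BL/6J, 9 weeks old at the start, which ate a purified low fat diet for 3 weeks and then a high fat diet (HFD) for 12 weeks at 29°C. They then received the iron chelator desferrioxamine (DFO) by injection each day for 5 days, at 100 mg/kg, and were killed after 2 h without food. Arrays of control mice were not analysed here, so no effect of DFO can be given. The RNA of each mouse was labelled with the dye Cy5 and hybridised on 1 array against a pool labelled with Cy3, which held RNA of all mice of the wider study. The log2 ratio of Cy5 over Cy3 used below is therefore a value relative to that pool. The dyes were not swapped, so the difference of a ratio from 0 was not tested, and differences between mice were described instead. A share of each mouse's own RNA is in the pool.

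Most cells cannot break down the cholesterol ring, and they store surplus cholesterol as esters or export it. The transporters ABCA1 and ABCG1 move cholesterol to lipid-poor apolipoproteins and to high density lipoprotein particles, the enzyme encoded by Soat1 makes the esters, and the liver X receptors (LXRs) encoded by Nr1h2 and Nr1h3 sense oxidised cholesterol and switch on export genes. Adipocytes hold a large part of the body's free cholesterol, and macrophages in obese adipose tissue take up lipid and are known for high expression of this pathway.

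The mice did not form 1 continuous set. The first principal component of the log2 ratios of 27716 expressed probes held 75.1% of the variance, and mice 4, 5, 6 and 7 lay apart from the other 6 on it, with a gap of 0.513 of the whole range. The tissue markers moved with this. The mean log2 ratio of 13 measured adipocyte markers was between -2.29 and -1.25 in these 4 mice and between -0.12 and 0.67 in the other 6. Of single markers, Cfd ranged from -4.69 to 1.45, Adipoq from -2.78 to 0.81 and Plin1 from -2.31 to 0.54. The mean of 20 macrophage markers was between 0.77 and 1.03 in mice 4 to 7 and between -1.28 and -0.06 in the others, with Trem2 ranging from -2.43 to 1.52, Adgre1 from -1.52 to 1.55, Itgax from -1.50 to 1.19 and Cd68 from -1.39 to 0.99. Cd163 of the same list went the other way, at -0.28 to -0.11 in mice 4 to 7 and 0.15 to 0.60 in the others, and Mrc1 was at 0.45 in mouse 1. The mean of 8 mesothelium markers ranged from -1.51 to 0.26 and that of 6 endothelium markers from -0.72 to 0.28, both lowest in mice 4 to 7. Within the mesothelium list Msln ranged from -2.10 to 0.68, and Krt18 from -2.40 to 1.85 with mouse 2 highest, where Msln was at -0.96. The mean of 10 fibroblast and progenitor markers stayed between -0.31 and 0.21, but its members went opposite ways. In mice 4 to 7 Lum was at 0.61 to 0.91 and Col1a1 at 0.47 to 0.66, while Dpp4 was at -0.99 to -0.57 and Pi16 at -0.92 to -0.23, and Pdgfra lay between -0.45 and 0.25 over all mice. Of 8 liver markers, Alb, Fgb and Fabp1 were not well above background on any array, and the mean of the 4 expressed ones ranged from -0.88 to 0.22, lowest in mice 4 to 7, with Cyp2e1 ranging from -3.68 to 1.42. Of 8 epididymis markers 1 was expressed. The part of these differences in the results below was not tested, and in whole tissue fewer cells of a type and less RNA per cell cannot be told apart. There were 5 slides, each with a pair of arrays, and slide as a factor passed the threshold for 0 of 27804 probes (limma moderated F test, 1142 at an unadjusted p under 0.05). Mice 5 and 6 shared slide 3, mouse 4 was on slide 2 with mouse 3, and mouse 7 was on slide 4 with mouse 8. Slide thus partly overlapped the split of the mice. With 2 arrays on each slide the test can miss differences between slides, so it does not clear slide.

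Of the 9 genes, 8 were well above background on all 10 arrays in both colours. Apoc1 was far lower in 4 mice than in the others, and Soat1 and Abcg1 were higher in the same mice than in the others. Apoe, which lies beside Apoc1 in the genome, varied little. To ask whether a gene varied between mice beyond the array error, the variance of log2 Cy5 over the 10 mice was set against that of log2 Cy3, which comes from the same pool on every array. By this test (Pitman-Morgan, two-sided, Benjamini-Hochberg adjusted over 25049 probes) 6 of the 8 genes varied more in Cy5. Over the whole array 59.7% of tested probes did so, so the count of 6 of 8 is near the background. The genes differed from each other in the size of the spread. The SD of log2 Cy5 was 0.67 to 1.28 for Abcg1, Apod, Soat1 and Apoc1. It was 0.09 to 0.22 for Nr1h2, Apoe, Pltp and Abca1. The median over the 8 genes, 0.45, falls between these and is the value of no gene. For all tested probes the median was 0.20.

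**Figure D1:**
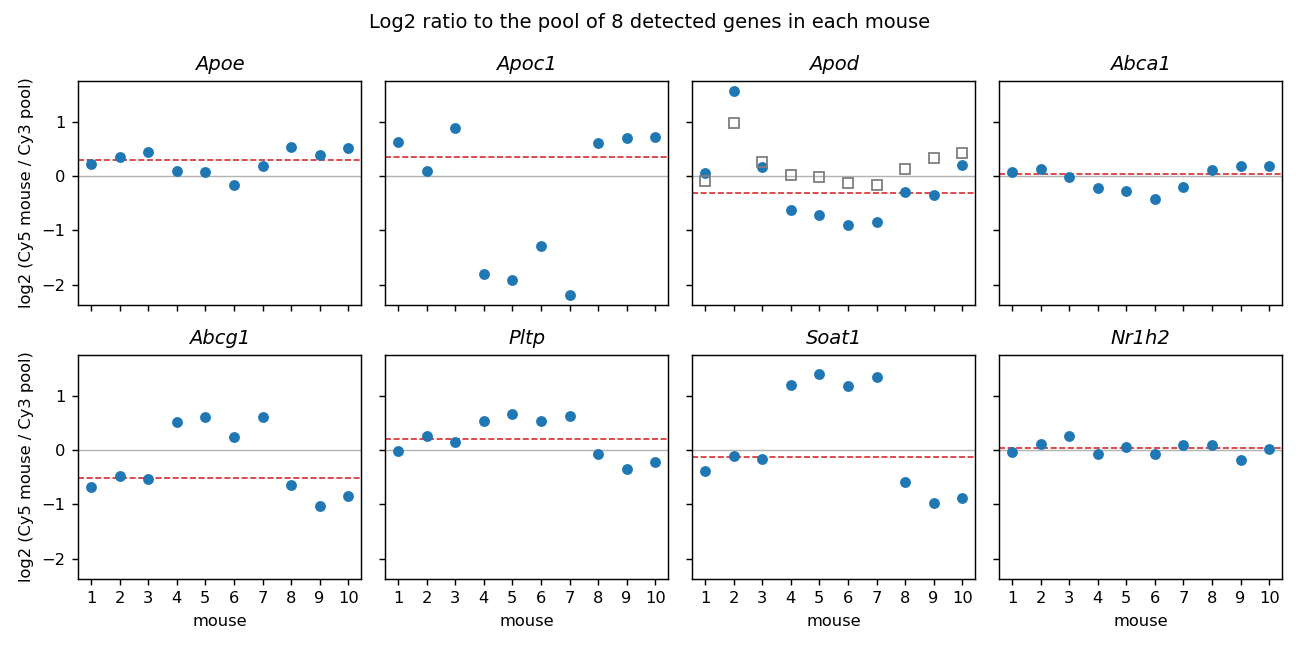
Log2 ratio of Cy5 (mouse) over Cy3 (pool) on the y axis for each of 10 mice on the x axis, in 1 panel for each of the 8 detected genes on a common scale. Blue points are the probe that stands for the gene, the dashed line is their median, and open squares in the Apod panel are its dimmer probe. Apoc1 spans -2.18 to 0.88 while Apoe spans -0.17 to 0.53.

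Apoe encodes apolipoprotein E, the ligand by which lipoprotein remnants are cleared and a secreted acceptor of cholesterol. Its probe was spotted 10 times on each array. It is shown because it defines what was measured for the least variable of Apoe, Apoc1 and Apod, and it lies at chr7:20281732-20281791 on the minus strand (mm9), free of stop codons in all 3 reading frames.
Apoe probe: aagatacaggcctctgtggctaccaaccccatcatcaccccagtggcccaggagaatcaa
The log2 ratio of Apoe was lowest at -0.17 in mouse 6, had a median of 0.29 and was highest at 0.53 in mouse 8. Mice 4 to 7 held the 4 lowest values, at most 0.19, and the other 6 lay at 0.23 or above. The 10 mice thus covered a 1.62-fold range. The SD between mice was 0.22, against a median SD of 0.0697 between the 10 spots of 1 array. The SD of log2 Cy5 was 0.17 and that of log2 Cy3 0.06 (adjusted p = 0.000361, Pitman-Morgan), and 40.4% of tested probes had a smaller Cy5 SD than Apoe. Of the same test without normalization between arrays the adjusted p was 0.784, with median centring 0.624, and without mice 4 to 7 0.0549, where the SDs were 0.10 and 0.02 over 6 mice and their ratio rose from 2.99 to 4.86. With median centring, and in the deposited normalized values, mice 4 to 7 no longer held the 4 lowest Apoe values.

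Apoc1 encodes a small apolipoprotein known to inhibit lipoprotein lipase and the uptake of remnants. Its probe lies 6841 bases from that of Apoe on chromosome 7 (mm9, 20274831 to 20274890, minus strand). The log2 ratio was lowest at -2.18 in mouse 7, had a median of 0.35 and was highest at 0.88 in mouse 3. The values of mice 4 to 7 lay between -2.18 and -1.29 and those of the other 6 between 0.09 and 0.88, with mouse 2 the lowest of those. The median falls in the gap between 0.09 and 0.60, and leaving out 1 mouse moves it to 0.60 (without mouse 2, 4, 5, 6 or 7) or to 0.09 (without any of the others). This is an 8.36-fold range, and the Cy5 SD of 1.28 exceeded that of 99.5% of tested probes. The Cy3 SD was 0.04 (adjusted p = 1.43e-08, Pitman-Morgan), and without mice 4 to 7 the adjusted p was 0.0118. Under all 6 ways of computing the value, the deposited normalized values and Cy5 alone among them, mice 4 to 7 were the lowest for Apoc1.

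Apoc2 and Apoc4, further genes of this cluster on chromosome 7, did not have mice 4 to 7 as their lowest. Apoc2 encodes the activator of lipoprotein lipase, and its ratio was lowest at -0.32 in mouse 10 and highest at 0.41 in mouse 2, with mice 4 to 7 inside that range. Apoc4, whose role is less well known, ranged from -0.35 in mouse 3 to 0.39 in mouse 4. Apoc2 and Apoc4 both varied more in Cy5 than in Cy3, with adjusted p = 0.00684 and 0.033 (Pitman-Morgan). Their probes lie 24645 and 17766 bases from that of Apoe.

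Apod encodes apolipoprotein D, a lipocalin that carries arachidonic acid and other small lipids. By its brighter probe (chromosome 16, 31297206 to 31297265, minus strand, mm9) the log2 ratio was lowest at -0.90 in mouse 6, had a median of -0.31 and was highest at 1.56 in mouse 2. Mouse 2 stood alone at the top, the next mouse being at 0.20, and mice 4 to 7 were the 4 lowest. The dimmer probe (31296299 to 31296358) ranged from -0.17 to 0.97, also with mouse 2 highest, but mouse 1 lay among the low values there at -0.09, and its Cy3 was well above background on 4 arrays. The brighter probe had a Cy5 SD of 0.71 and a Cy3 SD of 0.07 (adjusted p = 6.96e-06, Pitman-Morgan), and without normalization between arrays the adjusted p was 0.068. With median centring mice 4 to 7 were no longer the 4 lowest for Apod.

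Apoa1 encodes the main protein of high density lipoprotein, made in liver and intestine. It is shown because all 10 spots of its probe on each array stayed near background, at chr9:46037921-46037980 on the plus strand (mm9).
Apoa1 probe: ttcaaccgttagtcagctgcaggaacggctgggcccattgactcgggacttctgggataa
Its Cy5 signal was 37.0 to 42.5 over the 10 arrays, where the median background of an array was 32 to 37, and it was well above background on 0 arrays in either colour. No ratio is therefore given. This says that Apoa1 was not detectable with this probe at this signal. Of 19 other apolipoprotein genes on the array 11 were expressed, and Apob and Apom were among the 8 that were not.

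**Figure D2:**
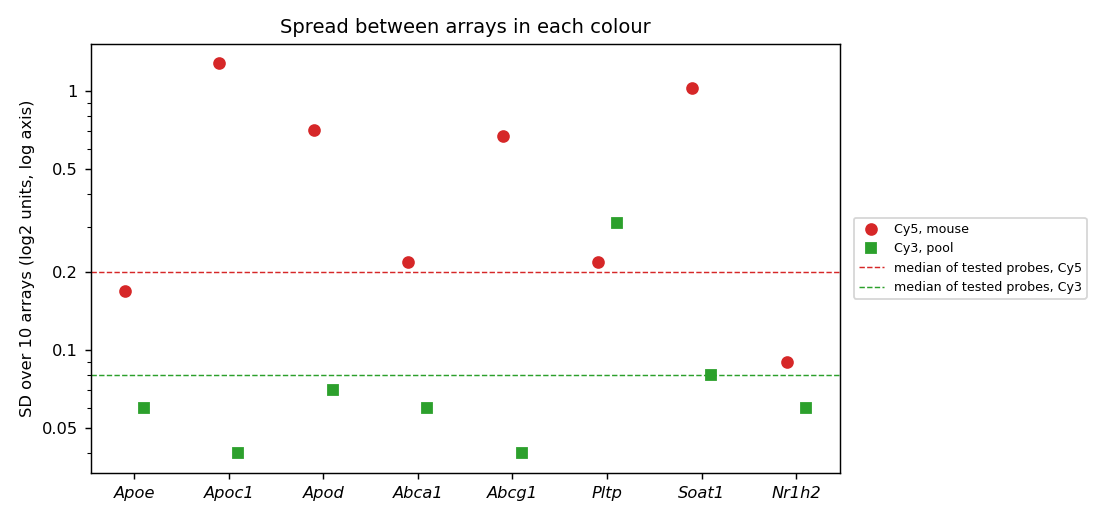
SD over 10 arrays of log2 Cy5 (red circles, mice) and log2 Cy3 (green squares, pool) for the 8 detected genes, on a log axis in log2 units, with dashed lines at the medians of all tested probes (0.20 and 0.08). Apoc1 and Soat1 have the 2 highest Cy5 SDs, and for Pltp the Cy3 SD lies above the Cy5 SD.

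The exporters differed in direction over the mice. Abcg1 encodes the transporter that passes cholesterol to high density lipoprotein, and its probe lies on chromosome 17 (31252580 to 31252639, plus strand, mm9). The log2 ratio was lowest at -1.03 in mouse 9, had a median of -0.51 and was highest at 0.61 in mouse 7. Mice 4 to 7 lay between 0.24 and 0.61, and the other 6 between -1.03 and -0.47. The range was 3.13-fold, with a Cy5 SD of 0.67 and a Cy3 SD of 0.04 (adjusted p = 7.98e-08, Pitman-Morgan; 0.0101 without mice 4 to 7). The 4 mice were highest for Abcg1 under all 6 ways of computing the value.

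Abca1 encodes the transporter that loads cholesterol and phospholipid onto lipid-poor apolipoproteins, and it is a known LXR target. Its log2 ratio (chromosome 4, 53043944 to 53044003, minus strand, mm9) was lowest at -0.42 in mouse 6, had a median of 0.03 and was highest at 0.19 in mouse 10. Mice 4 to 7 lay between -0.42 and -0.21, the opposite side to Abcg1, and the other 6 between -0.01 and 0.19. The range was 1.52-fold. The Cy5 SD of 0.22 exceeded the Cy3 SD of 0.06 (adjusted p = 0.00334, Pitman-Morgan). That call was lost without normalization between arrays (adjusted p = 0.458), with median centring (0.242), with slide as a block (0.0989) and without mice 4 to 7 (0.751), and under median centring and in the deposited normalized values mice 4 to 7 were not the 4 lowest.

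Soat1 encodes the enzyme that esterifies cholesterol for storage. Its log2 ratio (chromosome 1, 158358766 to 158358825, minus strand, mm9) was lowest at -0.97 in mouse 9, had a median of -0.13 and was highest at 1.40 in mouse 5. Between 1.17 and 1.40 lay mice 4 to 7, and the other 6 lay between -0.97 and -0.10. This is a 5.15-fold range, at raw Cy5 signals of 156 to 1220. By the scanner log ratio the values of Soat1 spanned more, from -1.39 to 1.60, so the width depends on the processing. The Cy5 SD of 1.03 exceeded that of 98.6% of tested probes, and the Cy3 SD was 0.08 (adjusted p = 1.99e-07, Pitman-Morgan; 0.0261 without mice 4 to 7). For Soat1 too the 4 mice were highest under all 6 ways of computing the value.

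Pltp encodes the phospholipid transfer protein, which remodels high density lipoprotein, and is another known LXR target. Its log2 ratio (chromosome 2, 164665022 to 164665081, minus strand, mm9) was lowest at -0.34 in mouse 9, had a median of 0.20 and was highest at 0.66 in mouse 5. Mice 4 to 7 lay between 0.53 and 0.66, above the other 6, which lay between -0.34 and 0.26. They were also highest without background subtraction, with median centring, by the scanner log ratio and in the deposited normalized values. The deposited values were 13.39 to 13.50 in mice 4 to 7 and 12.44 to 12.90 in the others. For this gene, unlike Abcg1 and Soat1, the difference was not seen in the normalized Cy5 channel taken alone. Normalized log2 Cy5 of Pltp was 12.13 to 12.54 in mice 4 to 7, inside the range of 11.95 to 12.69 of the other 6, so Cy5 alone did not part them. Normalized log2 Cy3 of the pool was 11.59, 11.78, 11.78 and 11.92 on the arrays of mice 4 to 7 and 12.23 to 12.43 on the others, and the raw Cy3 signal showed the same, at 2060, 3040, 2650 and 3040 against 3680 to 4150. The higher Pltp ratio in these mice therefore came with a lower signal of the shared pool. What lowered it was not tested. Over all mice the Cy3 SD of 0.31 was above the Cy5 SD of 0.22. The 2 SDs did not differ by the test (adjusted p = 0.409, Pitman-Morgan). Without mice 4 to 7 the order turned, with a Cy5 SD of 0.25 and a Cy3 SD of 0.07. That difference did not pass the threshold either (adjusted p = 0.0743, Pitman-Morgan). Of tested probes, 0.647% had a Cy3 SD over all mice as large as the 0.31 of Pltp. A Cy3 SD over 0.2 was measured for 507 of all 25049 tested probes. It was measured for 4 of 13 tested adipocyte markers (Fabp4 at 0.56, Dgat2 at 0.35, Cfd at 0.32 and Cidec at 0.30). Of 19 tested macrophage markers it was measured for 1 (Lgals3 at 0.50), while the median Cy3 SD of both lists was 0.09.

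**Figure D3:**
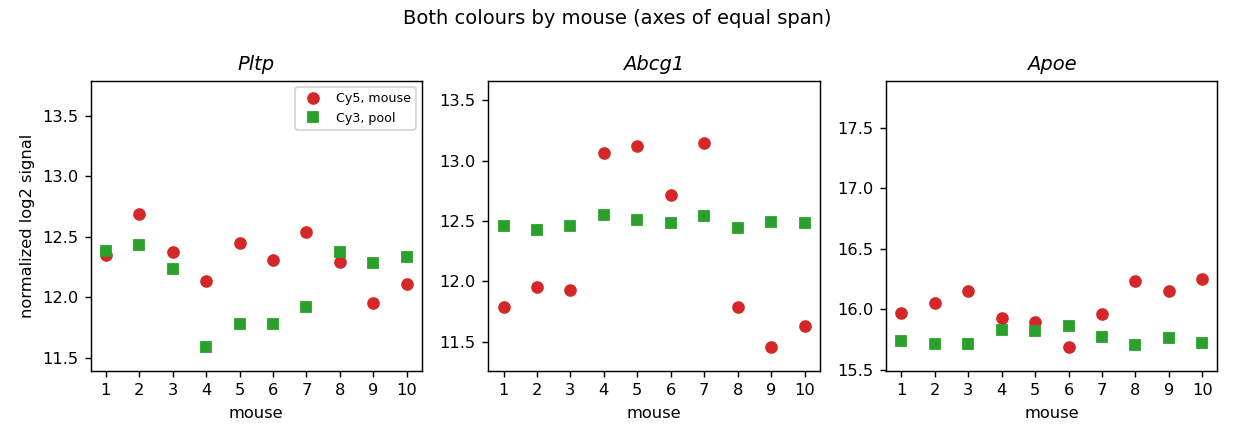
Normalized log2 signal of Cy5 (red circles, mouse) and Cy3 (green squares, pool) on the y axis against mouse on the x axis, for Pltp, Abcg1 and Apoe, on axes of equal span. The Cy3 points of Pltp drop to between 11.59 and 11.92 on the arrays of mice 4 to 7, while those of Abcg1 and Apoe stay level.

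Nr1h2 encodes LXR beta, the LXR found in most tissues. Its log2 ratio (chromosome 7, 51805013 to 51805072, minus strand, mm9) was lowest at -0.19 in mouse 9, had a median of 0.04 and was highest at 0.26 in mouse 3, with mice 4 to 7 among the others. The range was 1.36-fold, and the Cy5 SD of 0.09 was larger than that of 6.62% of tested probes. It did not differ from the Cy3 SD of 0.06 by the test (adjusted p = 0.233, Pitman-Morgan). Nr1h3, which encodes LXR alpha, ranged more widely, from -0.61 in mouse 4 to 0.47 in mouse 3, and was at or below -0.32 in mice 4 to 7 and at 0.00 or above in the others (adjusted p = 0.000642, Pitman-Morgan).

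To set these genes among the others of their pathway, 27 further genes of cholesterol efflux and LXR signalling were examined, of which 24 were expressed and 19 varied more in Cy5 than in Cy3 (79.2%, against 59.7% of all tested probes). Their directions were mixed, and the mean over the list stayed between -0.18 and -0.04 in all 10 mice. Some genes that handle cholesterol in lysosomes and ester stores were high in mice 4 to 7 and others were not. Lipa, the lysosomal acid lipase, ranged from -1.80 in mouse 9 to 1.07 in mouse 7, with mice 4 to 7 highest at 0.24 or above. Nceh1, a neutral cholesterol ester hydrolase, ranged from -2.26 in mouse 9 to 1.07 in mouse 7, with mice 4 to 7 at 0.87 or above. Npc1, which carries cholesterol out of lysosomes, ranged from -0.64 to 0.85, also with mouse 9 lowest and mouse 7 highest. Npc2, its soluble partner, ranged from -0.56 in mouse 7 to -0.03, with mice 4 to 7 between -0.56 and -0.23, and did not pass the variance test (adjusted p = 0.449, Pitman-Morgan).

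Other LXR targets and export genes moved less or on the other side. Srebf1, the regulator of fatty acid synthesis, was lowest at -0.69 in mouse 7 and highest at 0.67 in mouse 9. Mylip, a ubiquitin ligase induced by LXRs, ranged from -0.53 in mouse 5 to 0.36 in mouse 9. Scarb1, a receptor for high density lipoprotein, ranged from -0.23 in mouse 7 to 0.33 in mouse 1, and Cyp27a1, which makes 27-hydroxycholesterol, from -0.14 to 0.22. All of these 4 passed the variance test, with Cyp27a1 the narrowest. Clu, which encodes the secreted chaperone clusterin, also called apolipoprotein J, was low in the same mice as Apoc1, at -1.92 to -1.20 in mice 4 to 7 and 0.16 to 0.57 in the others. Over the list of other apolipoproteins 9 of 11 tested genes varied more in Cy5 (81.8%).

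Of 12 receptors and lipases, 8 were expressed and 7 of these varied more in Cy5 (87.5%). Lrp1, an endocytic receptor for Apoe-bearing particles, was highest at 0.63 in mouse 7 and lowest at -0.50. Lpl, the lipoprotein lipase, ranged from -0.20 to 0.42 and did not pass the test (adjusted p = 0.758, Pitman-Morgan). Vldlr, the receptor for very low density lipoprotein, was at -0.97 or below in mice 4 to 7 and at -0.52 or above in the others. These lists were chosen with results of the same arrays known, so their counts are a description.

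**Figure D4:**
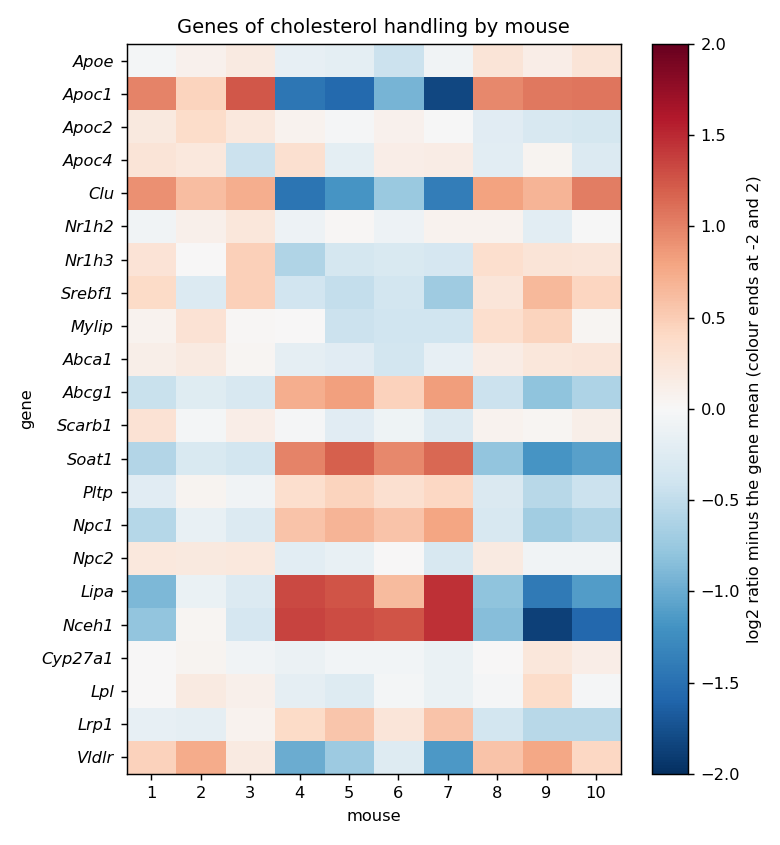
Log2 ratio minus the mean of the gene over 10 mice (colour, from -2 in blue to 2 in red) for genes of cholesterol handling on the y axis and 10 mice on the x axis. Apoc1, Clu and Vldlr are blue and Abcg1, Soat1, Npc1, Lipa and Nceh1 are red in mice 4 to 7.

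Because mice 4 to 7 were a separate cluster for most genes, no correlation was taken across all 10 mice where either measure was parted, and it was taken over mice 1, 2, 3, 8, 9 and 10 instead. This left 25 of the 28 pairs of detected genes with 6 mice and 3 pairs with 10. After adjustment over the 28 pairs, 2 passed the threshold by Pearson's r (exact permutation over 6 mice) and 0 by Spearman's rho, for which 5 had an unadjusted p under 0.05. The share of pairs of other expressed genes that would pass is not given. Within the 6 mice Pltp and Soat1 had r = 0.981 (exact permutation p = 0.00278, adjusted p = 0.0389) and rho = 1 (p = 0.00278, adjusted p = 0.0778). Abcg1 and Soat1 had r = 0.949 (exact permutation p = 0.00278, adjusted p = 0.0389) and rho = 0.943 (p = 0.0167, adjusted p = 0.156). Without the 2 mice farthest from the median of the gene named first, r was 0.988 and 0.886. Abcg1 and Pltp had r = 0.966 with an adjusted p of 0.0519 (exact permutation). With Cy5 alone r was 0.940 for Pltp with Soat1, 0.988 for Abcg1 with Soat1 and 0.929 for Abcg1 with Pltp. The lower pool signal of Pltp lay on the arrays of mice 4 to 7, which do not enter here. Within the 6 mice its Cy3 SD was 0.07. In the deposited normalized values the same 3 values were 0.746, 0.737 and 0.911, and median centring gave 0.651, 0.588 and 0.986. With median centring Pltp with Soat1 and Abcg1 with Soat1 did not pass the threshold, and Abcg1 with Pltp did. No pair passed the threshold in the deposited values. With any of mice 1, 2, 3, 8, 9 and 10 left out r stayed between 0.970 and 0.988 for Pltp with Soat1 and between 0.927 and 0.973 for Abcg1 with Soat1, and no pair passed, but 5 mice can give no p below 0.00833 before adjustment.

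Apoe and Apoc1, the neighbours, had r = 0.298 in these 6 mice (exact permutation p = 0.582, adjusted p = 0.679) and rho = 0.257 (p = 0.658, adjusted p = 0.838). Without the 2 mice farthest from the Apoe median r was 0.661, so the value rests on which of the 6 mice enter. Over all 10 mice Apoe and Apod had r = 0.534 (permutation p = 0.11, adjusted p = 0.334) and rho = 0.721 (p = 0.023, adjusted p = 0.161). The correlation of Apoe with Nr1h2 over 10 mice was 0.351 (permutation p = 0.318, adjusted p = 0.495), and rho was 0.345 (p = 0.331, adjusted p = 0.618). Apod with Nr1h2 gave r = 0.369 (permutation p = 0.293, adjusted p = 0.495) and rho = 0.430 (p = 0.218, adjusted p = 0.521). Without the 2 mice farthest from the median of the gene named first, r of these 3 pairs was 0.544, 0.169 and 0.207. Within mice 1, 2, 3, 8, 9 and 10, run because mice 4 to 7 held the 4 lowest values of both Apoe and the brighter Apod probe and so chosen after seeing the data, Apoe with Apod had r = -0.288 (exact permutation p = 0.592, adjusted p = 0.633 over 3 pairs) and rho = -0.143 (p = 0.803, adjusted p = 0.803). Apoe with Nr1h2 had r = 0.261 and Apod with Nr1h2 r = 0.388 there (exact permutation adjusted p = 0.633 for both). With the processing used above none of these relations passed the threshold, over 10 mice or over 6. With median centring Apoe with Nr1h2 over 10 mice had r = 0.873 and passed (permutation adjusted p = 0.0379). By the scanner log ratio its r was -0.0983, so this value depends on the processing.

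The genes were then set beside the mean of the macrophage and the adipocyte markers within the same 6 mice, which gave 16 relations. By r 4 passed the threshold and by rho 2 did. The share of all expressed genes that would pass with these marker means is not given. The values are therefore a description and not a trait particular to these genes. Soat1 had r = 0.986 with the macrophage mean (exact permutation p = 0.00139, the smallest that 6 mice can give, adjusted p = 0.0148) and rho = 1 (adjusted p = 0.0222). Pltp had r = 0.993 (exact permutation p = 0.00278, adjusted p = 0.0148) and rho = 1 (adjusted p = 0.0222). Abcg1 had r = 0.972 (exact permutation p = 0.00278, adjusted p = 0.0148) and rho = 0.943 (adjusted p = 0.0889). Without the 2 mice farthest from the median of the gene r was 0.952, 0.978 and 0.928. Mouse 9 was lowest and mouse 2 highest of the 6 for all 3 genes and for the marker mean. With Cy5 alone the values for Soat1, Pltp and Abcg1 were 0.991, 0.972 and 0.972, in the deposited values 0.903, 0.959 and 0.912, and with median centring 0.951, 0.848 and 0.808. In the deposited values and with median centring 0 of the 16 relations passed the threshold. With 1 of the 6 mice left out r stayed between 0.981 and 0.994 for Soat1, 0.989 and 0.998 for Pltp and 0.968 and 0.986 for Abcg1, but 0 relations passed without mouse 1, 2, 3, 9 or 10, when 5 mice remained and the smallest p before adjustment was 0.00833.

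Apoc1 and Abca1 did not pass the threshold with either list. Within the 6 mice Apoc1 had r = -0.523 with the macrophage mean (exact permutation p = 0.306, adjusted p = 0.373) and r = 0.705 with the adipocyte mean (p = 0.149, adjusted p = 0.238), and without mouse 2 these were 0.294 and -0.351, so both signs rest on that mouse. Abca1 had r = -0.610 with the macrophage mean (exact permutation p = 0.203, adjusted p = 0.295) and r = 0.347 with the adipocyte mean (p = 0.515, adjusted p = 0.515), and without mouse 2 these were -0.941 and 0.862. With Cy5 alone they were -0.056 and -0.187, and with median centring 0.333 and 0.87, so both signs depend on the processing. Pltp was the remaining gene past the threshold, with r = -0.927 against the adipocyte mean (exact permutation p = 0.00556, adjusted p = 0.0222) and rho = -0.886 (adjusted p = 0.107), a value that turned to 0.415 with median centring. Apoe had r = -0.365 with the macrophage mean (exact permutation p = 0.479, adjusted p = 0.511) and did not pass the threshold.

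**Figure D5:**
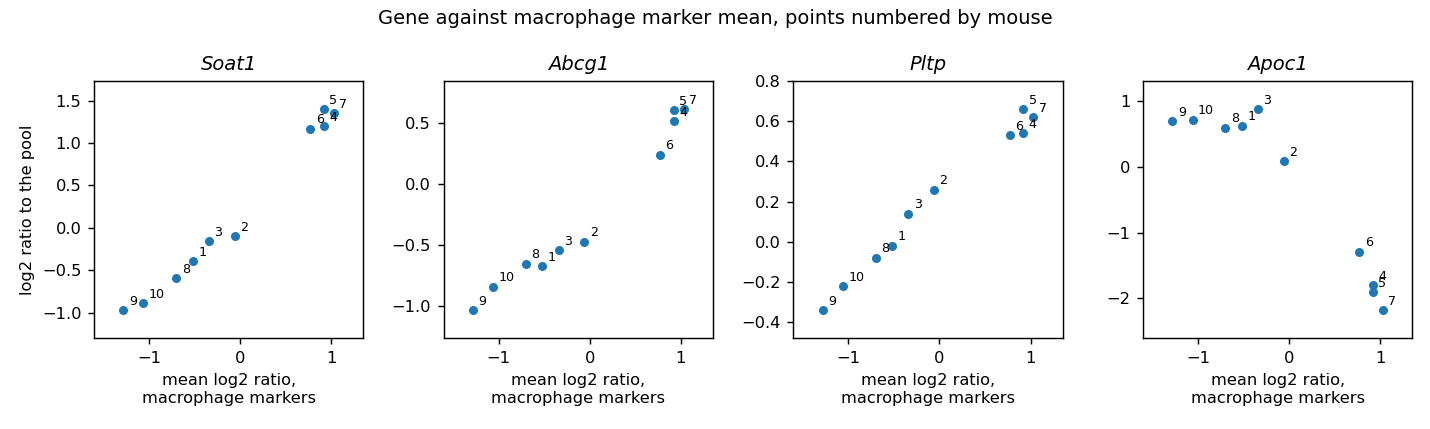
Log2 ratio of Soat1, Abcg1, Pltp and Apoc1 (y axis, own scale in each panel) against the mean log2 ratio of 20 macrophage markers (x axis), with each point numbered by mouse. Mice 4 to 7 form a separate cluster at the right, between 0.77 and 1.03, and among the other 6 the points of Soat1, Abcg1 and Pltp lie near a line.

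For each gene whose Cy5 varied more than its Cy3, the 3 genes with the most similar profile over the 10 mice were found among 13031 genes measured on all arrays, by the root mean square (RMS) difference of mean-centred log2 ratios. For Apoc1 these were Phgdh (RMS difference 0.171), which encodes the entry enzyme of serine synthesis, Serpina3c (0.189) and Sfrp5 (0.195), a secreted Wnt inhibitor. For Abcg1 they were Folr2 (0.0666), a folate receptor known from resident macrophages, Amz1 (0.0692) and Arhgap6 (0.0793). For Soat1 they were 2010111I01Rik (0.0928), Nckap1l (0.0936), a part of the actin machinery of blood cells, and Adssl1 (0.0941). For Apod they were Wdr78 (0.19), Emid1 (0.216) and Usp2 (0.22), each highest in mouse 2. For Apoe the nearest were Fahd1 (0.0588), Ston1 (0.0712) and Zfp869 (0.0844), and for Abca1 E030030I06Rik (0.0472), Ldb1 (0.0582) and Zfp148 (0.0593). The SDs of the log2 ratios of these members were 1.27 for Apoc1, 0.64 for Abcg1, 0.97 for Soat1, 0.73 for Apod, 0.22 for Apoe and 0.22 for Abca1, against which the differences are to be read.

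Promoters are shown for Abca1 and Pltp, both known LXR targets, and for Soat1, whose ratio was correlated with that of Pltp within 6 mice. RefSeq promoters (GRCm38.p6) matched 7 of the 9 genes by symbol. Below are the 250 bases before the start of each, 5′ to 3′ on the strand of the gene, with matches to the motifs searched in capitals. Abca1 is at chr4:53159896-53160145, Pltp at chr2:164857709-164857958 and Soat1 at chr1:156474329-156474578, all on the minus strand.
Abca1: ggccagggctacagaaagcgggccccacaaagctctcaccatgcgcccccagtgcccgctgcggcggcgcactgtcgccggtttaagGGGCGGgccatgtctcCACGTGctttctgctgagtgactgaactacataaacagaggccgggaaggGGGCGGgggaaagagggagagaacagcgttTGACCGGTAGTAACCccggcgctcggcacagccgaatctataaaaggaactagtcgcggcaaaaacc
Pltp: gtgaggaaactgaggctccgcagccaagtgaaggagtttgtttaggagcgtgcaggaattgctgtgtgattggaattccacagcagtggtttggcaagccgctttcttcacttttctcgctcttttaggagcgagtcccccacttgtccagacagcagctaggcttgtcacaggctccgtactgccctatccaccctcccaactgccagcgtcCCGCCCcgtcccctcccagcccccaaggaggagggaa
Soat1: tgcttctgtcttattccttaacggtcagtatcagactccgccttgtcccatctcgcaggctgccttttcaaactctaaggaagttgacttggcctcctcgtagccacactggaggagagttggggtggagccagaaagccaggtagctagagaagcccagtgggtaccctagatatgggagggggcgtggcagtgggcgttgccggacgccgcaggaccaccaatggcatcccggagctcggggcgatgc
The motifs were searched on both strands. Abca1 held a relaxed LXR direct repeat (GGTNA, any 5 bases, GGTNA) beginning 67 bases before the start, a letter pattern found in 0.622% of 32817 promoters. It also held an E-box (CACGTG, in 6.02% of promoters) at 147 bases and the GC box (GGGCGG, in 32.7%) at 163 and 97 bases. Pltp held a GC box at 37 bases, and Soat1 held none of the 5 motifs. The AP-1 letters (TGANTCA, in 6.75% of promoters) and the PU.1 core (GAGGAAGT, in 2.44%) were in none of the 9 promoter windows of these genes. A match is a description of the letters only, and no match says only that the letters are not in this window.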

How the data were processed

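Epididymal WAT of 10 DFO-injected mice was measured on 2-colour arrays. Per the labels, Agilent Feature Extraction 10.7.3.1 was used by the submitters. The deposited intensity values are spot means and local background medians of each colour, not normalized. The deposited log10 ratio of Cy5 over Cy3 was made by the same software. The authors also deposited log2 normalized values for 30733 spots, by a method not given in the sources used here. Over the 404 probes with a Cy3 SD above 0.2 they differed between mice like the log2 ratio (median RMS difference 0.105) more than like log2 Cy5 (0.249). Over all 22006 probes well above background on all arrays these differences were 0.103 and 0.11. Within each array the deposited values had r = 0.994 to 0.999 with log2 of the raw Cy5 median signal, and every column had a median of 8.52. Whether they are centred on the pool stays unknown. No columns were left unused for lack of a sample.

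Mean signals were corrected by normexp (offset 50), normalized by loess within arrays and, for single channels, by Aquantile between arrays (limma 3.58.1, R 4.3.3). Control and outlier spots were left out, and spots of 1 probe were averaged. A gene is its probe with the highest mean Cy5. Expressed means well above background in Cy5 on at least 5 arrays (27807 probes). Variances were tested on probes above background in both colours on at least 5 arrays (25133, of which 25049 had values on all arrays). The threshold was an adjusted p of 0.05. Correlations used exact permutation over 6 mice (720 orders) or 100000 permutations over 10, two-sided. Mice counted as separate clusters on a measure where the widest gap that left 3 or more mice on either side was 0.4 of the range or parted the mice as the first principal component did. Members with all probes, genes most like them and listed genes were named. Members and lists were chosen with earlier results of these data known. Scripts were tested on simulated data. Median Cy5 signals were 54.8 to 81.3 over a background of 32 to 37, no spot was saturated, and this margin and the 10 arrays limit the precision. Replicate numbers are those of the labels, and p-values rest on these 10 samples only, or on fewer of them where stated. Python 3.11.15 with scipy 1.17.1 did the other steps. Alternatives were other background, scaling and filter settings, the scanner ratio, the deposited values, slide as a block and leaving out mice. Gene symbols are those of the array. Values of 1 listed gene are not reported here.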

Additional observations from a re-analysis of the deposited data

Results flagged for a closer look

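In mouse 2 the log2 ratio of Apod was the highest by both probes, and with the processing used above it was far from that of the other 9 mice. For the brighter probe the gap to the next mouse was 0.551 of the whole range and for the dimmer probe 0.477, both above the critical value of Dixon's test for 10 samples at the 95% level. Chance gives such a gap in about 1 in 20 groups, and both probes were measured on the same RNA. Mouse 2 was also the highest for Krt8 and Krt18, at 1.91 and 1.85, and for Apoc3, at 1.06. Krt8 and Krt18 are on the mesothelium list, of which Msln, Upk3b and Lrrn4 were at -0.96, -0.98 and -0.98 in mouse 2. The part of these in the Apod value was not tested.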

How the results depend on the processing

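The calls for Apoc1, Abcg1 and Soat1 passed the variance test under all 18 alternatives, and those of Nr1h2 and Pltp failed it under all 18. Without normalization between arrays the count over the array was 4684 (18.7% of tested probes) and that over these 8 genes 3 (Apoe, Apod and Abca1 lost). Over the 6 mice other than 4 to 7 the array count was 3549 (14.2%) and that over these 8 genes 4 (Apoe and Abca1 lost). Median centring gave 4 (Apoe and Abca1 lost) beside 40.6% of all tested probes, and slide as a block 5 (Abca1 lost) beside 41.3%. Leaving out 1 mouse at a time gave 13473 to 14412 probes and 6 of these genes each time. Median centring moved the median ratio of all expressed probes from 0.00 to 0.33 and put 8 medians above 0 instead of 5, Apoe at 1.08, Pltp at 0.80, Nr1h2 at 0.64, Abca1 at 0.61 and Abcg1 at 0.14. So the side of 0 on which a gene lies depends on the scaling. Pairs past the threshold were 2, and 0 in the deposited values and with slide as a block, where 3 pairs could be fitted and the smallest p possible was 0.0625. With median centring 2 passed, but these were Abcg1 with Pltp and Apoe with Nr1h2 (permutation adjusted p = 0.0379 for both). Pltp with Soat1 (0.265) and Abcg1 with Soat1 (0.359) were lost there. By the scanner ratio Pltp with Soat1 and Abcg1 with Pltp passed (0.0389 for both), and Abcg1 with Soat1 did not (0.0519). Leaving out 1 mouse gave 0 to 2 pairs, 5 mice allowing fewer orders. Relations with marker lists were 4, and 6 without background subtraction (Apod and Soat1 with the adipocyte mean added), 5 with the scanner ratio, 5 with Cy5 alone, 0 with median centring and in the deposited values, and 0 to 4 leaving out 1 mouse. The relation of Pltp with the adipocyte mean turned to 0.415 with median centring. The cause of these shifts was not tested. Cy5 alone and the 6 mice were chosen after seeing the data. No other probe of a gene passed the filter in both colours, so that alternative was not run for these genes. No paired analysis was possible because the samples form 1 group.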
